A study of Mus musculus with 7 samples.

Results

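Granule-rich neutrophils are neutrophils of the liver whose RNA still holds the transcripts of the secondary, or specific, granules. Among 62304 barcodes kept of 62930 in 7 droplet libraries of mouse liver carrying tumours, 868 met the rule for these cells. A barcode was kept with at least 500 UMIs (unique molecular identifiers, 1 per captured transcript), at least 200 genes and under 20% mitochondrial UMIs. A neutrophil had at least 1 UMI of Csf3r, the receptor for G-CSF, at least 5 UMIs of S100a8 and S100a9 together, and no more than 1 UMI each of Vcan and of C1qa, C1qb and C1qc together. Of the 6967 barcodes that passed, a granule-rich neutrophil had at least 5 UMIs of Ngp, Ltf and Camp together, and a granule-low neutrophil, the class it is set against, had at most 2. There were 5911 granule-low barcodes and 188 with 3 or 4 such UMIs. The members were thus chosen by measured UMIs of these 10 genes, so their levels are given as a description and were not tested.

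All samples came from livers given Nras and C-myc plasmids by hydrodynamic tail vein injection, which drives plasmid DNA into hepatocytes, and taken 2 weeks later. The 3 control samples had these plasmids alone. In the 4 samples called treated here a further plasmid was injected, labelled IL-2/CD25 after the cytokine interleukin-2 and a chain of its receptor. The labels name no strain, age or sex, call the material HCC tissue (hepatocellular carcinoma), give all samples the same batch, and do not say whether samples of a group came from separate mice, so p-values measure the spread between these samples only.

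Neutrophils mature in the bone marrow in a fixed order of granule production. Promyelocytes make the primary, or azurophil, granules with myeloperoxidase and elastase, myelocytes and metamyelocytes make the secondary granules with lactoferrin (Ltf), cathelicidin (Camp) and neutrophilic granule protein (Ngp), and later stages make gelatinase granules with Mmp9. The transcripts are lost as the cell matures while the proteins stay. C/EBP epsilon, encoded by Cebpe, is the transcription factor known to be needed for secondary granule genes.

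The 3 genes that define the cells are shown with the sequence just upstream of their first annotated transcript, because their UMIs chose the cells. The stretches are from RefSeq (GRCm38.p6), 5′ to 3′ on the gene's strand, and end at the base before the first start site in RefSeq or GENCODE M21. They lie at chr9:110419558-110419746 (plus strand) for Ngp, chr9:111019042-111019270 (plus strand) for Ltf and chr9:109849618-109849706 (minus strand) for Camp; each lies upstream of the gene named, outside its transcripts. Capitals mark matches of TTNNGCAA, a core that C/EBP factors bind, searched on both strands.
Ngp: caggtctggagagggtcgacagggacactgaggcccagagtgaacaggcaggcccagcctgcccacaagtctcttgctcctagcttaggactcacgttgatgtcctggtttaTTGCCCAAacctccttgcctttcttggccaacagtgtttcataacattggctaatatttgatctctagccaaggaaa
Ltf: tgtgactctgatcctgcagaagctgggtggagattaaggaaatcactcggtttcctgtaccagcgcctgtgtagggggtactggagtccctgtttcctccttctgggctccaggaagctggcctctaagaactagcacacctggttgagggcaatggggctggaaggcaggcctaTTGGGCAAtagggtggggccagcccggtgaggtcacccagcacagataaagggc
Camp: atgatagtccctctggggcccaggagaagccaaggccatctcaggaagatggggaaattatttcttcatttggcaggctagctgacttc
The Ngp stretch of 189 bases held 1 match, on the opposite strand, and the Ltf stretch of 229 bases held 1 on the gene's strand. The Camp stretch of 89 bases held none. Windows of these lengths held a match in 7.80%, 9.04% and 3.66% of 27025 RefSeq promoters. GAGGAAG, a core of PU.1 sites searched the same way, was in none of the 3 stretches and in 7.43%, 9.26% and 3.43% of the windows. A match is a description of letters and says nothing on binding in these cells.

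The granule-rich neutrophils numbered 271, 249 and 284 in controls 1, 2 and 3, and 5, 19, 26 and 14 in treated samples 1 to 4. Their median depth was 4802, 4411 and 6113 UMIs in the controls, against 1554, 1708 and 1836 in granule-low neutrophils, so the 2 classes differed in depth. Few barcodes were very deep: 3, 4 and 14 control members held over 20000 UMIs, and these gave 7.12%, 14.5% and 30.3% of all member UMIs in controls 1, 2 and 3. No member barcode sequence occurred in 2 libraries, and libraries shared 14 to 37 barcodes per pair. Retnlg, a resistin-like gene of neutrophils given as a marker but not used by the rule, and the azurophil and division genes are set out below for comparison with the label of immature cells.

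Granule-rich neutrophils made up 12.6%, 14.7% and 17.9% of the gated neutrophils of the controls and 1.36%, 5.01%, 6.84% and 3.47% of those of the treated samples. The means were 15.1 ± 2.67% (SD, n = 3) and 4.17 ± 2.33% (SD, n = 4), and the exact 95% intervals (Clopper-Pearson, counting error only) ran from 11.2% to 19.8% over the controls and from 0.444% to 9.86% over the treated samples. As a share of all kept barcodes they were 3.18 ± 0.302% (SD, n = 3) and 0.167 ± 0.0812% (SD, n = 4). No treated sample reached a control on either scale. The rule was written with this pattern known, so no test was made. The share of all barcodes also moves with the other cells. T and NK barcodes had at least 3 UMIs of T and NK cell markers and none of Csf3r, C1qa, C1qb or C1qc. They numbered 318 to 408 in a control and 5428 to 8228 in a treated sample.

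**Figure D1:**
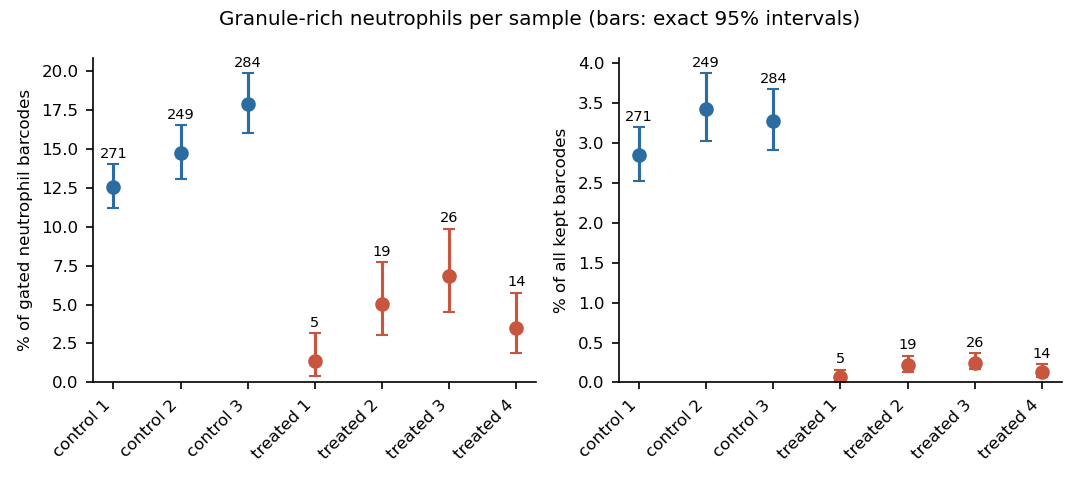
Granule-rich neutrophils as a percent of gated neutrophil barcodes (left) and of all kept barcodes (right), 1 point per sample with its exact 95% interval and the number of barcodes above it. The 3 controls lie between 12.6% and 17.9% on the left, above the 4 treated samples at 1.36% to 6.84%.

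A deeper barcode reaches 5 granule UMIs more readily, so the shares were also taken at 1 depth. After each barcode of at least 1000 UMIs was thinned to 1000 UMIs before the rule, with 1999 control and 1047 treated barcodes left out as too shallow, granule-rich cells were 5.74 ± 2.28% of control neutrophils (SD, n = 3) and 1.13 ± 0.742% of treated neutrophils (SD, n = 4). Controls then spanned 4.27% to 8.36% and treated samples 0.341% to 1.78%. Free RNA was measured in the T and NK barcodes, which should lack granule genes. Leaving out barcodes with Csf3r, C1qa, C1qb or C1qc UMIs may also leave out some with more free RNA of myeloid cells. There Ngp was at 83.8, 109 and 266 CPM (UMIs of a gene per 1000000 UMIs) in the controls and 1.56 to 24.7 CPM in the treated samples. In the granule-rich cells Ngp was at 15958, 12794 and 13004 CPM in the controls and 30708, 17715, 29112 and 28583 CPM in treated samples 1 to 4. The rule's 5 granule UMIs were reached by 3, 3 and 4 T and NK barcodes of controls 1, 2 and 3 (0.771%, 0.943% and 0.980% of them) and by 1, 2, 0 and 0 of treated samples 1 to 4. Median depth of the T and NK barcodes was 3363 to 5728 UMIs. Free granule RNA thus differed between the groups in the same direction as the shares, and its part in the shares was not tested.

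The boundary of the rule was not an empty gap. Of the control neutrophils, 115 had 3 and 66 had 4 granule UMIs, just outside, and 45 had 5 and 37 had 6, just inside. S100a8 and S100a9 made up a median of 10.5% and 14.9% of UMIs just outside and 20.8% and 23.3% just inside, against 3.50% in barcodes with 0 granule UMIs.

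The 3 granule genes did not fall away together. Across the 804 control members, 500 held Ltf, 503 held Camp and 800 held Ngp, and 419 (52.1%) held all 3. Each control's members were split into tertiles, 3 ranges of equal number, by the share of their UMIs that came from the 3 genes. In the lower tertile 156 of 267 barcodes (58.4%) held Ngp alone, in the middle tertile 64 of 268 (23.9%), and in the upper tertile 2 of 269 (0.743%), while all 3 genes were present in 11.2%, 49.3% and 95.5%. Ngp made up 89.5% of the granule UMIs of the lower tertile and 84.2% of the middle, but 55.7% of the upper, where Camp made up 28.8% and Ltf 15.6%. The median depth was 3848, 4382 and 7504 UMIs in the lower, middle and upper tertile, so the presence of a gene moves with depth, which the percentages of the summed granule UMIs do not use. The tertiles are ranges of a score that used the 3 genes, and 17 to 34 members of each control lay within 1.2-fold of a boundary.

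**Figure D2:**
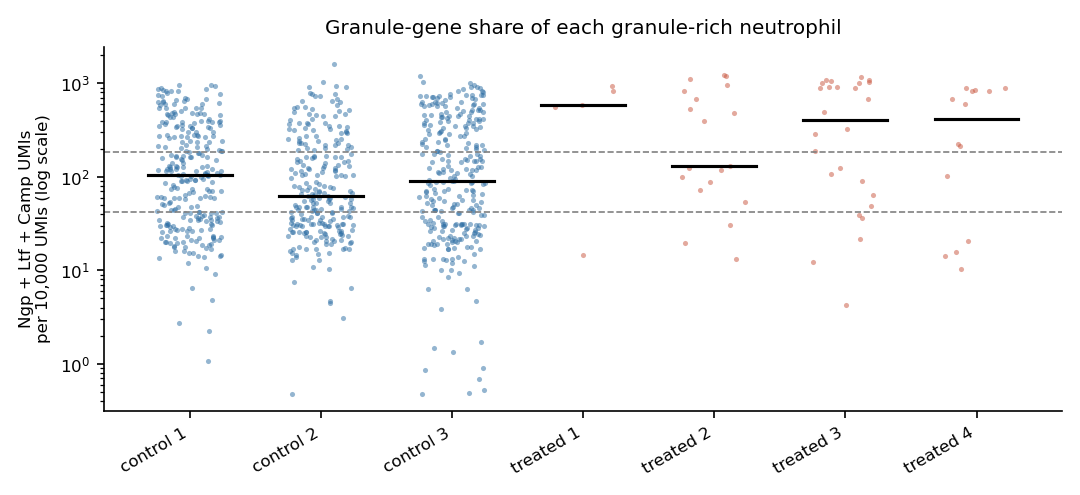
Ngp, Ltf and Camp UMIs per 10000 UMIs of each granule-rich neutrophil on a log axis, by sample, with the sample's median as a black line and the mean boundaries of the control tertiles as dashed lines (41.9 and 185 per 10000). Control medians lie at 62.8 to 105 and treated medians at 132 to 593 per 10000, and members of both groups lie on either side of both boundaries.

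The first comparison asked how granule-rich neutrophils differ from granule-low neutrophils of the same controls. UMIs were summed per sample and class, and edgeR's quasi-likelihood test with the sample as a block was run over 10691 genes. At a Benjamini-Hochberg adjusted p under 0.05, 1027 genes were higher in the granule-rich cells (9.61% of genes tested) and 947 lower (8.86%), and the median log2 fold change of all genes was -0.09. The shares of 9.61% and 8.86% are the background for the list counts of this comparison. Levels are given as CPM of the UMIs outside the 10 rule genes, since those took 21.5% to 31.5% of member UMIs and 4.31% to 5.32% of granule-low UMIs. Without control 1 the counts were 402 and 240, without control 3 they were 1396 and 1086, and with barcodes over 20000 UMIs left out they were 1941 and 2013. Without the block they were 237 and 107, and with every barcode thinned to 500 UMIs, which sets the depth of both classes equal, 496 and 373.

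The secondary granule list outside the rule held 12 genes. Adpgk, a glucokinase, Itgb2l, an integrin chain, and Lyz2, lysozyme, were counted with them here. Every one of the 12 was higher in the granule-rich cells, with a median log2 fold change of 3.13, against 9.61% of all genes. The 12 were also higher when any 1 control was left out, and 10 of 10 tested were higher after thinning. Since 3 genes of the same granules set the classes, this describes the classes and gives no independent support to them. Lcn2, lipocalin 2, which binds bacterial siderophores, was at 16886, 15000.0 and 11323 CPM in the granule-rich cells of controls 1, 2 and 3 and at 1774, 1858 and 1397 CPM in their granule-low cells (log2 fold change 3.23 ± 0.12 (SE), adjusted p = 1.65e-06). Itgb2l, an integrin beta chain of granulocytes, was at 247, 232 and 144 CPM against 4.11, 2.85 and 2.40 (log2 fold change 6.15 ± 0.18 (SE), adjusted p = 5.34e-07). The classes did not overlap for either gene. Fcnb, ficolin B, a lectin of immature myeloid cells, was at 96.2, 42.1 and 58.3 CPM in granule-rich and 0.866, 0.570 and 0.436 CPM in granule-low cells, the latter from 8 UMIs in all (log2 fold change 6.78 ± 0.28 (SE), adjusted p = 1.70e-06). Orm1, orosomucoid 1, an acute-phase protein also held in secondary granules, had 508 UMIs in the granule-rich and 23 in the granule-low cells (log2 fold change 6.17 ± 0.21 (SE), adjusted p = 1.12e-06). The smallest change of the list was that of Hp, haptoglobin (log2 fold change 1.44 ± 0.12 (SE), adjusted p = 1.02e-04). Adpgk, ADP-dependent glucokinase, had a log2 fold change of 3.69, Pglyrp1, a peptidoglycan recognition protein, 3.28, Olfm4, olfactomedin 4, 3.02 and Cd177, a surface marker of neutrophils, 2.48.

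**Figure D3:**
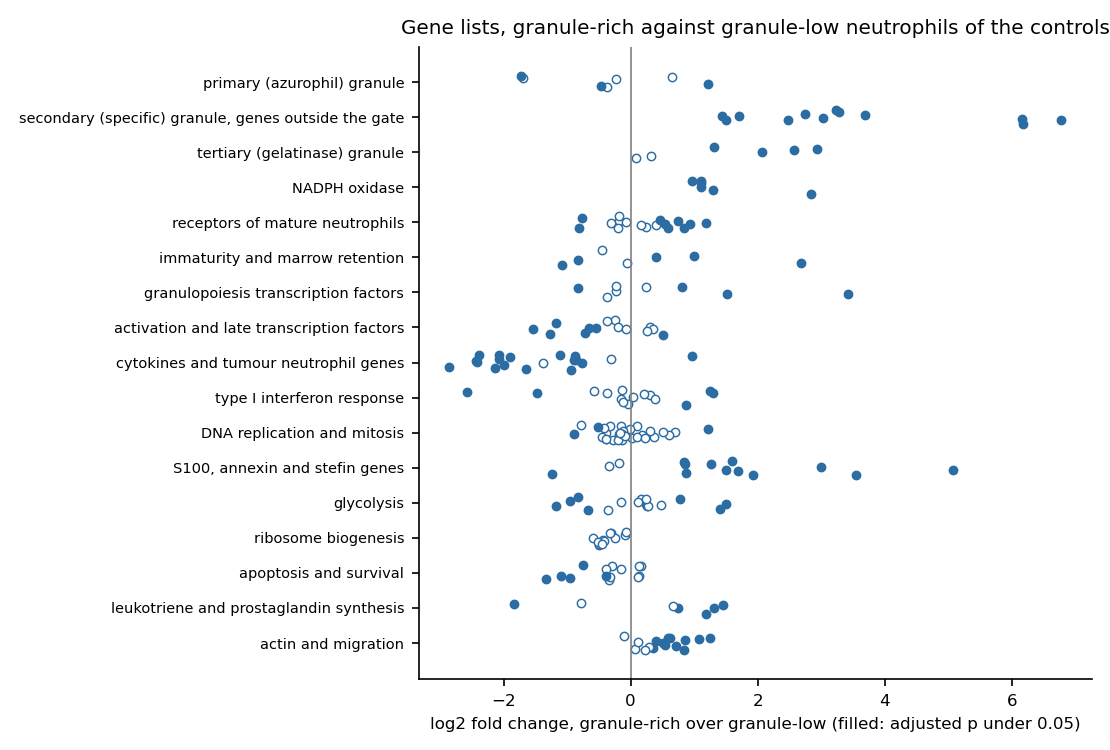
Log2 fold change of granule-rich over granule-low neutrophils in the 3 controls for the tested genes of 17 lists, 1 circle per gene, filled where the adjusted p was under 0.05. All 12 secondary granule genes lie right of 0 and are filled, and 16 of 19 cytokine and tumour neutrophil genes lie left of 0 and are filled.

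The gelatinase granule list, which here also counted Retnlg and Padi4, was mostly higher. Of its 6 genes 4 were higher and none lower. Retnlg, given as a marker of these cells but not used to choose them, was at 45577, 38299 and 22183 CPM in granule-rich and 6604, 7117 and 5171 CPM in granule-low cells (log2 fold change 2.57 ± 0.16 (SE), adjusted p = 1.93e-05). The Retnlg level was thus high in all 3 controls and lowest in control 3. Mmp9, gelatinase B, was at 2408, 1845 and 1467 against 949, 782 and 756 CPM (log2 fold change 1.31 ± 0.13 (SE), adjusted p = 1.64e-04), and Padi4, which citrullinates histones, had a log2 fold change of 2.93. Slc11a1 and Itgam did not pass the test, with log2 fold changes of 0.09 and 0.32.

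All 6 subunits of the NADPH oxidase, the enzyme of the oxidative burst, were higher in granule-rich cells. Cybb, its catalytic gp91phox chain, was at 1149.5, 704 and 761 CPM against 163, 200.3 and 68.0 (log2 fold change 2.84 ± 0.26 (SE), adjusted p = 1.27e-04), and Ncf1, the p47phox organiser, at 1059, 725 and 691 against 426, 366 and 305 (log2 fold change 1.29 ± 0.12 (SE), adjusted p = 1.24e-04). The other 4 had log2 fold changes between 0.97 and 1.11. The list had 6 of 6 higher in each fit that left out 1 control and 3 of 6 without the block.

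Among 8 tested transcription factors of granulopoiesis, 3 were higher and 1 lower. Cebpe was at 188, 161 and 139 CPM against 24.0, 10.8 and 15.5 CPM (log2 fold change 3.43 ± 0.19 (SE), adjusted p = 9.50e-06), and no granule-low library came near a granule-rich one. Spi1, which encodes PU.1, had a log2 fold change of 0.80 (adjusted p = 9.88e-04), and Klf5 one of 1.52 (adjusted p = 0.00365). Runx1 was lower, at -0.83 (adjusted p = 0.00403). Gfi1, a repressor of early granulopoiesis, had too few UMIs to be tested.

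Of 14 S100, annexin and stefin genes, 11 were higher and 1 lower, against 9.61% and 8.86% of all genes. Their median log2 fold change was 1.38. Between the tertiles described below 6 of the 14 were higher and 3 lower, against 11.3% and 16.4% of all genes, with a median of 0.17. Anxa1, annexin A1, was at 2512, 2179 and 1823 against 274, 272 and 344 CPM (log2 fold change 3.00 ± 0.17 (SE), adjusted p = 1.30e-05). Stefins are inhibitors of cysteine proteases, encoded in mice by a cluster of near-identical genes, so reads may be split between copies. Stfa3 was at 323, 481 and 111 CPM against 7.58, 22.5 and 2.83 (log2 fold change 5.07 ± 0.21 (SE), adjusted p = 1.73e-06), and the level in control 3 was the lowest of the 3. Stfa2 had a log2 fold change of 3.55 and Stfa1 one of 1.92. S100a4 was the gene of the list that was lower, at -1.24 (adjusted p = 0.00201). Its change was 0.39 (adjusted p = 0.357) when barcodes with at least 3 UMIs of another cell type's markers were left out.

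The remaining genes named by the rule for the largest increases were Serpinb1a, Mrgpra2b, Ly6a2, Ifitm6 and Scrg1. Serpinb1a, an inhibitor of neutrophil serine proteases, was at 803, 604 and 466 CPM against 41.1, 37.6 and 33.8 (log2 fold change 4.16 ± 0.15 (SE), adjusted p = 1.50e-06). Ifitm6, of a family of interferon-induced membrane proteins, was at 7191, 4357 and 4408 CPM against 522, 470.5 and 361, a log2 fold change of 3.67. All 10 named genes were higher in each fit that left out 1 control.

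Surface receptors of mature neutrophils were split. Of 18 genes 7 were higher and 2 lower. Cxcr2, the chemokine receptor of marrow exit, was at 966, 927 and 573 against 657, 625 and 489.8 CPM (log2 fold change 0.58 ± 0.12 (SE), adjusted p = 0.0109), and Ltb4r1, the leukotriene B4 receptor, had a log2 fold change of 1.18 (adjusted p = 2.24e-04). Tlr4 and Clec4d were lower, at -0.81 (adjusted p = 0.00611) and -0.77 (adjusted p = 0.00231). Without control 1, 2 of the 18 were higher and 2 lower. Ly6g, the antigen used to sort mouse neutrophils, was at 952, 811 and 639 CPM against 143, 134 and 127 (log2 fold change 2.69 ± 0.13 (SE), adjusted p = 5.13e-06). Among the other tested genes of immaturity and marrow retention, Cd24a and Cd63 were higher, Itga4 and Cd93 lower, and Cxcr4, which holds neutrophils in the marrow, did not pass the test, at -0.45 (adjusted p = 0.120). Without control 1, and likewise without the block, 1 gene of that list was higher and none lower.

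Cytokine and tumour neutrophil genes were mostly lower in granule-rich cells: 16 of 19 were lower and 1 higher, with a median log2 fold change of -1.64, against 8.86% of all genes. Il1b, interleukin-1 beta, was at 85.4, 244 and 603 CPM in the granule-rich and 829, 889 and 1653 CPM in the granule-low cells (log2 fold change -1.99 ± 0.27 (SE), adjusted p = 0.00106). Cxcl2, a neutrophil chemoattractant, was at 636, 1296 and 2539.6 against 2936, 4964 and 5805 CPM (log2 fold change -1.64 ± 0.17 (SE), adjusted p = 2.36e-04). For Il1b no granule-rich library reached a granule-low one, and for Cxcl2 likewise. Cxcl3 (-2.85), Csf1, which encodes M-CSF (-2.43), Ccl3 (-2.39) and Cd274, which encodes PD-L1 (-2.13), were among those with a log2 fold change below -2. Osm, oncostatin M, was the exception and was higher (log2 fold change 0.96 ± 0.14 (SE), adjusted p = 0.00185). Without the block 4 of the 19 were lower, and without control 1 there were 13.

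The other named decreases were Scimp, an adaptor of immune receptors, Car4, a carbonic anhydrase, Ifi207, Clec4n, which encodes dectin-2, P2ry14, a receptor for UDP-sugars, Itgae and Sirpb1c. Car4 was at 34.2, 49.4 and 60.2 CPM in the granule-rich and 288, 257 and 289 CPM in the granule-low cells (log2 fold change -2.40 ± 0.16 (SE), adjusted p = 2.67e-05). Itgae was not called without control 1. Of 14 activation and late transcription factors 6 were lower and 1, Mxd1, higher. Atf3 had a log2 fold change of -1.53 (adjusted p = 6.62e-04) and Egr1 one of -1.27 (adjusted p = 9.90e-04). Both are immediate-early genes.

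Actin and migration genes moved by small amounts: 11 of 16 were higher and none lower, with Tmsb4x, thymosin beta 4, at a log2 fold change of 0.86 (adjusted p = 7.27e-04). Without control 1 there were 5 of 16, and without the block none. Of all genes 9.61% were higher and 8.86% lower, the background for each list of this paragraph in all members. Of 7 leukotriene and prostaglandin genes 4 were higher, Alox5 (5-lipoxygenase) among them at 1.46 (adjusted p = 1.41e-04), and Ltc4s, the leukotriene C4 synthase, was lower at -1.84 (adjusted p = 0.00140). Apoptosis and survival genes had 5 of 14 lower and none higher, with Bcl2a1d, a relative of BCL2 with near-identical copies, at -1.34 (adjusted p = 0.00208). Without control 1, 2 of the 14 were lower, and without control 2 there were 3.

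The second comparison followed the order within the granule-rich cells themselves, from the lower to the upper tertile of granule-gene share. Over 5638 genes, 639 were higher in the upper tertile (11.3%) and 923 lower (16.4%), with a median log2 fold change of -0.02. The upper tertile held all 12 secondary granule genes at higher levels, 5 of 6 oxidase genes and 4 of 6 gelatinase granule genes. These 12 were also tested and higher with barcodes over 20000 UMIs left out, and 10 of 12 without control 2 or without control 3, where 3 and 4 of the 6 oxidase genes and 1 and 2 of the 6 gelatinase granule genes were higher. With a granule sum of at least 10, 1 gelatinase granule gene was higher and 1 lower. With barcodes holding any other cell type's markers left out, 8 of 9 secondary granule genes were higher with a median log2 fold change of 0.80, against 3.02 in all members, as were 1 of 6 oxidase and 0 of 5 gelatinase granule genes. With every barcode thinned to 500 UMIs they were 9 of 9, 3 of 6, and 0 of 3 with 1 lower. With the 339 tumour-marker barcodes described below left out, the 10 that could be tested were higher. The granule-gene share set the tertiles, so these counts describe an order and give no independent support to it.

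Of the 12 secondary granule genes outside the rule, 11 were highest in the upper tertile in all 3 controls. Lcn2 was at 1774, 1858 and 1397 CPM in the granule-low cells of controls 1, 2 and 3, 6889.9, 5416 and 2600.2 in the lower tertile, 14679, 13574 and 10531 in the middle tertile and 26545, 26584 and 28262 in the upper tertile. Its level was higher at each step than at the one before in every control. With tumour-marker barcodes left out, Lcn2 was at 10607, 8566 and 10432 CPM in the lower tertile and 14394, 13453 and 13317 in the middle. The upper tertile was then at 28979, 24774 and 24491 CPM, so the order stayed and the rise from the lower tertile was smaller. Cybb went from 146, 76.4 and 62.8 CPM in the lower tertile to 431, 229.9 and 499.8 in the middle and 2445, 1725 and 2272 in the upper tertile (log2 fold change 4.53 ± 0.39 (SE), adjusted p = 2.07e-09). Cebpe was at 27.1, 32.4 and 9.66 CPM in the lower tertile and 383, 379 and 408 in the upper tertile (log2 fold change 4.20 ± 0.38 (SE), adjusted p = 6.58e-09). For Cybb the granule-low cells were at 163, 200.3 and 68.0 CPM. Chil3, a chitinase-like protein, was at 2226, 1569 and 971 CPM in the lower and 11625, 12207 and 11784 CPM in the upper tertile. Lyz2, lysozyme, was at 1372, 389 and 366 and 5146, 4373 and 6117 CPM in these. With tumour-marker barcodes left out, Chil3 was at 3532, 2438 and 2102 CPM in the lower and 10802, 11328.5 and 7953 CPM in the upper tertile.

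Most Orm1 and Fcnb UMIs of the members came from the upper tertile: Orm1 had 474 UMIs there and 3 in the lower tertile, and Fcnb 250 and 2. The other genes named for the largest increases in the upper tertile were Ncam1, Krt83, Ly75 (DEC-205), Lbp (lipopolysaccharide-binding protein), Olfml2b and Ceacam1, a cell adhesion molecule of neutrophils. Ceacam1 was at 19.0, 11.6 and 4.83 CPM in the lower and 258, 138 and 172 CPM in the upper tertile (log2 fold change 4.13 ± 0.39 (SE), adjusted p = 1.01e-08). All 10 were also called with barcodes over 20000 UMIs left out, and with tumour-marker barcodes left out 4 of the 10 could be tested and all 4 were called.

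Retnlg and Mmp8 had another order. Retnlg was highest in the middle tertile of all 3 controls, at 74947, 55564 and 42255 CPM, against 48465, 34741 and 14476 in the lower and 23924, 30320.0 and 20789 in the upper tertile. With tumour-marker barcodes left out, Retnlg was still highest in the middle tertile, at 80214.5, 61818 and 65115 CPM. The lower tertile was then at 76800.5, 57853 and 48208 CPM and the upper at 29552, 35287 and 49601 CPM. Over all members, the difference between the upper and lower tertiles of Retnlg did not pass the test (log2 fold change -0.28 ± 0.45 (SE), adjusted p = 0.689). With barcodes over 20000 UMIs left out, an alternative chosen after seeing the data, it was lower in the upper tertile at -1.08 (adjusted p = 2.08e-05). Mmp8, the collagenase of secondary granules, was at 1299, 773 and 413 CPM in the lower tertile, 2904, 2039.8 and 1717 in the middle and 1895, 1919 and 1768 in the upper, a rise of 1.27 between lower and upper (adjusted p = 0.00723). It was highest in the middle tertile of controls 1 and 2, and with tumour-marker barcodes left out in control 1 alone. With a granule sum of at least 10 its change was -0.03 (adjusted p = 0.931). Over all 6839 genes of at least 20 CPM in a step, 3.25% were highest in the middle tertile in every control, 10.6% in the upper tertile and 11.1% in granule-low cells.

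**Figure D4:**
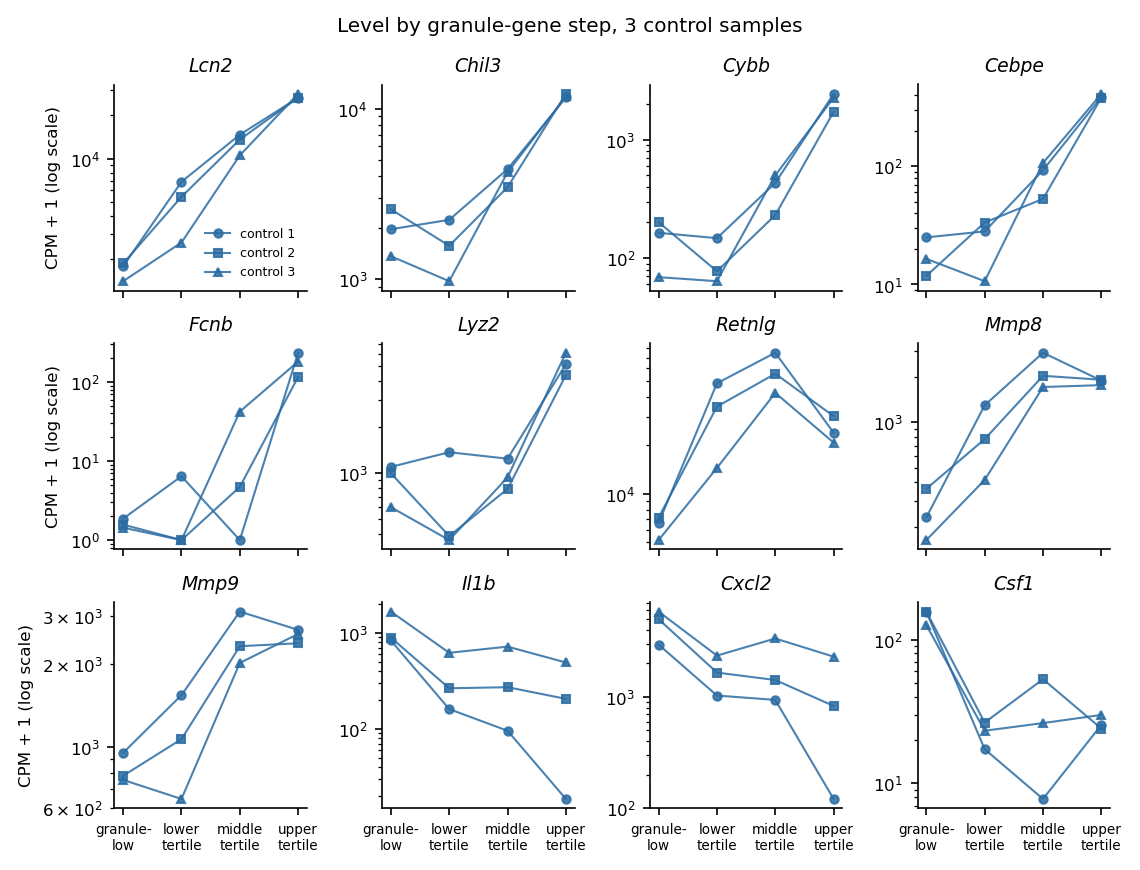
CPM plus 1 on a log axis for 12 genes in granule-low neutrophils and in the lower, middle and upper tertile of the granule-rich neutrophils, 1 line per control sample. Lcn2, Chil3, Cybb, Cebpe, Fcnb and Lyz2 peak in the upper tertile, Retnlg peaks in the middle tertile, and Il1b, Cxcl2 and Csf1 are highest in the granule-low cells.

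Some cytokine genes were lower in the upper tertile. Cxcl2 was at 1025, 1647 and 2339.5 CPM in the lower and 120.3, 827 and 2290.0 CPM in the upper tertile (log2 fold change -1.33 ± 0.43 (SE), adjusted p = 0.0187), and Il1b at 160.0, 264 and 617 and 17.8, 205 and 489 CPM (log2 fold change -1.01 ± 0.37 (SE), adjusted p = 0.0423). In control 1 both were lowest in the upper tertile, and control 3 moved least. Wfdc17, a small secreted protein of myeloid cells, was at 11456, 6677 and 4191 CPM in the lower tertile, 7572, 6008 and 5352 in the middle and 822, 1891 and 2156 in the upper (log2 fold change -2.21 ± 0.46 (SE), adjusted p = 4.59e-04). Ifitm1, an interferon-induced membrane protein, was at 4978, 3218 and 2379 CPM in the lower tertile, 5536, 4239 and 3178 in the middle and 864, 980.1 and 1187 in the upper (log2 fold change -1.80 ± 0.37 (SE), adjusted p = 4.69e-04). For both, the 3 upper-tertile libraries lay below all lower and middle ones. In the cytokine list 6 of 17 genes were lower and none higher, against 16.4% lower and 11.3% higher over all genes. The receptor list had 1 of 18 lower and 3 higher and the activation factors 1 of 14 lower, shares near or below those over all genes. With barcodes over 20000 UMIs left out, an alternative chosen after seeing the data, the cytokine, receptor and activation lists became 10 of 16 lower, 12 of 18 lower with 2 higher, and 10 of 14 lower. Of all genes in that setting 503 of 4495 were lower and 434 higher. Without control 2, 1 of 17 cytokine genes was lower, without control 1 there were 3, and without the block none. With barcodes over 20000 UMIs left out, Cxcr2 changed from -0.04 (adjusted p = 0.944) to -0.79 (adjusted p = 6.13e-04).

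The summed level of tumour epithelium RNA was highest in the lower of the 3 tertiles, but the share of barcodes that held it was not. The summed level of 6 markers (Krt8, Krt18, Krt19, Epcam, Krt7 and Spp1) was 1573, 3744 and 7237 CPM in the lower tertile of controls 1, 2 and 3. The means were 952 CPM in the middle tertile, 566 CPM in the upper tertile and 2320 CPM in granule-low cells. At least 3 such UMIs were present in 339 of 804 members (42.2%) and 1158 of 4453 granule-low cells (26.0%), and their number depends on depth. By tertile they were present in 40.8% of the lower, 38.1% of the middle and 47.6% of the upper. The 10 genes named as lower in the upper tertile were Plat, Dock9, Gzma, Cald1, Cdkn2b, Nrip1, Adm, Inpp4b, Slc38a4 and F2r. Plat was at 48.8, 169 and 483 CPM in the lower and 6.68, 2.56 and 16.3 CPM in the upper tertile, highest in control 3. With barcodes over 20000 UMIs left out, 1 of the 10, Gzma (granzyme A), had enough UMIs to be tested and was still lower, and with tumour-marker barcodes left out none was tested. Ribosome biogenesis genes, with 9 of 9 lower in the upper tertile, became 4 of 6 without the deep barcodes and 0 of 3 without the tumour-marker barcodes, where Npm1 was at -0.21 (adjusted p = 0.531). Of all genes 923 of 5638 were lower in all members, 503 of 4495 without the deep barcodes and 253 of 2519 without the tumour-marker barcodes. The 8 hepatocyte markers summed to 1193 CPM in the lower tertile, 400 in the middle and 288 in the upper. Beyond these fits, the part of tumour and hepatocyte RNA in the results was not tested.

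The markers of other blood cells were low or had a split list. B and plasma cell markers summed to 0.915 to 11.8 CPM in the members of the controls, with 1 of 6 at 0, and T and NK markers to 29.1 to 154 CPM, with 1 of 9 at 0. The 9 monocyte and macrophage markers summed to 1326 CPM in the members and 909 CPM in granule-low cells. Ly6c2 gave most of that: it was at 832, 704 and 491 against 101, 109 and 55.6 CPM (log2 fold change 3.09 ± 0.13 (SE), adjusted p = 1.73e-06) and was at 1214, 1231 and 1122 CPM in the upper tertile, while Csf1r, at -1.51 (adjusted p = 0.00417), and Ccr2, at -1.54 (adjusted p = 2.35e-04), were lower in the granule-rich cells. Ly6c2, Csf1r and Ccr2 were singled out after their values were seen.

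Genes of the earliest stage were found in few members. At least 5 UMIs over the 7 azurophil granule genes were found in 7 of 804 control members (0.871%) and 3 of 64 treated members. Elane, neutrophil elastase, was at 436, 0 and 7.22 CPM in the upper tertiles of controls 1, 2 and 3 and Mpo, myeloperoxidase, at 138, 2.56 and 0 CPM, and most of it was in control 1. Between tertiles 2 of 3 tested azurophil genes were higher and 1 lower, and with barcodes over 20000 UMIs left out none of 2 was higher and 1 was lower. Of the list, Ms4a3 was higher at 1.22 (adjusted p = 0.0134), and Ctsg and Ctsc lower in granule-rich than granule-low cells, where Ctsg was at 38.1, 0 and 32.3 CPM. With a granule sum of at least 10 against 0, 3 of 5 azurophil genes were higher and 1 lower, and Ctsg had a log2 fold change of 0.76 (adjusted p = 0.272).

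Of 30 genes of cell division 1 was higher in granule-rich than granule-low cells, Hmgb2 (log2 fold change 1.22 ± 0.11 (SE), adjusted p = 1.14e-04), a chromatin protein that is also abundant outside division, and 2, Pcna and Tubb5, were lower. Mki67 was at 174, 29.3 and 119 CPM in the granule-rich and 91.8, 59.0 and 50.8 CPM in the granule-low cells (log2 fold change 0.70 ± 0.32 (SE), adjusted p = 0.172). At least 5 UMIs over 10 division genes were found in 40 of 804 control members (4.98%). They were 10 of 271, 3 of 249 and 27 of 284 members in controls 1, 2 and 3, so the samples differed. Of the 40, 37 also held at least 3 tumour epithelium UMIs. These 40 had a median of 18452 UMIs. Upper against lower tertile, Mki67 rose by 0.89 (adjusted p = 0.0404), and with barcodes over 20000 UMIs left out it was at -0.20 (adjusted p = 0.709). The count of division genes depended on the barcodes used. In granule-rich against granule-low cells 6 of 30 were higher and 3 lower with a granule sum of at least 10, and likewise with barcodes over 20000 UMIs left out. Of all genes in these settings, 1712 of 9255 and 1941 of 9873 were higher, near the share of the list, and 1857 and 2013 were lower. In the same comparison 8 of 29 were higher and 4 lower with lymphoid, dendritic, basophil and endothelial marker barcodes left out, and 5 of 30 higher and 1 lower without control 2. Of all genes 1546 of 9062 and 921 of 11402 were higher in these. Between tertiles 3 of 25 were higher and 2 lower, and 5 of 12 and 8 of 12 were higher with the granule sum of at least 10 and with the lymphoid and other listed markers left out. Of all genes 320 of 4231 and 330 of 4447 were higher in these last settings.

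Treated against control members was not tested, because a minimum of 20 members a sample was set for that test and 1 of the 4 treated samples reached it, with 19 in another. The values of the treated members stand beside those of the controls. Of the 64, 38 (59.4%) lay above the mean boundary of the control upper tertiles, with 80.0%, 47.4%, 61.5% and 64.3% in treated samples 1 to 4 and 35.8%, 26.9% and 37.0% in controls 1 to 3. All 3 granule genes were present in 47 of 64 (73.4%) and Ngp alone in 5 (7.81%). Differences in the genes below therefore stand beside a difference in granule-gene share between the groups.

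Ltf was at 8988, 6144, 8318 and 7490.5 CPM in treated samples 1 to 4 and 3873, 3243 and 3162 CPM in controls 1 to 3, and Camp at 24145, 15031, 20789 and 16190.5 and 6998, 5821 and 5581 CPM. Cybb was at 3573, 2931, 3426 and 3609 CPM in the treated members and 1149.5, 704 and 761 in the control members, and Lyz2 at 13877, 7970.1, 10765 and 10875 and 2862, 1913 and 2062. For these 4 genes no treated sample fell as low as a control. Ltf and Camp are rule genes, whose UMIs chose the members. The share of all genes without overlap between the groups was not counted, so the separation is a description only. Mmp8 was at 5179, 5152, 3057 and 5178 CPM, above its control levels, also above the 1895, 1919 and 1768 CPM of the control upper tertiles. With tumour-marker barcodes left out, the control upper tertiles were at 2164, 2237 and 3068 CPM. Control 3 then lay above treated sample 3. Lcn2 overlapped, at 11079, 9505, 12440.4 and 16022 CPM in the treated and 16886, 15000.0 and 11323 CPM in the control members.

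Stefin genes and Wfdc17 gave few UMIs in the treated members. Stfa2 had 0, 1, 1 and 0 UMIs in treated samples 1 to 4 and 997, 1494 and 806 UMIs in controls 1 to 3. Stfa3 had 0, 15, 2 and 0 UMIs, against 359, 526 and 224. The treated members held 36104 to 159963 UMIs outside the rule genes and the control members 1092599 to 2025528, so these counts are not levels. As CPM, Stfa3 was at 130 in treated sample 2, above the 111 of control 3, so the groups overlapped. Wfdc17 had 0, 6, 8 and 0 UMIs, against 6826, 5245 and 7869, and was in treated granule-low cells at 1236, 953, 739.7 and 1494 CPM, against 7914, 6428 and 6083 CPM in control ones. Stfa2 was at 27.7, 10.3, 4.89 and 38.9 CPM in treated and 80.1, 97.5 and 52.3 CPM in control granule-low cells. A count of 0 allows up to 83.1 CPM in treated sample 1 and 47.1 CPM in treated sample 4 (3 UMIs of those outside the rule genes, counting error only), below the 896, 1367 and 398 CPM of Stfa2 in the control members. Retnlg was at 10774, 17692, 19817 and 32075 CPM in the treated members and 45577, 38299 and 22183 in the controls, and these ranges overlap.

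Division UMIs were present in 8 of the 64 treated members (12.5%) at 5 or more. They were 1 of 5, 1 of 19, 5 of 26 and 1 of 14 members in treated samples 1 to 4. None of the 8 held 3 tumour epithelium UMIs. The 6 tumour epithelium markers summed to 0 to 55.4 CPM in the treated members and 863 to 4363 CPM in the control members. Their absence was thus nearly fixed for any treated barcode and does not set these apart from the control ones. Of the 1458 treated granule-low cells, 4 had at least 5 division UMIs (0.274%). Their median depth was 2499 UMIs, against 6337 in the treated members, and a fixed count of UMIs depends on depth. Of the 4453 control granule-low cells 133 had as many (2.99%), 120 of them with at least 3 tumour epithelium UMIs. Of the 181 control neutrophils with 3 or 4 granule UMIs it was 37 (20.4%), 36 of them with such tumour UMIs. Mki67 was at 1108, 304, 556 and 785 CPM in the treated members, from 1, 1, 7 and 2 barcodes of treated samples 1 to 4. Elane was at 609, 1969, 0 and 0 CPM, the last pair from counts of 0. In treated samples 1 and 2 only 1 member each held at least 5 azurophil UMIs. Il1b was at 249, 451, 875 and 1036 CPM in the treated members and 11242, 8869, 8665 and 8063 CPM in their granule-low cells, lower in the members within each treated sample.

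**Figure D5:**
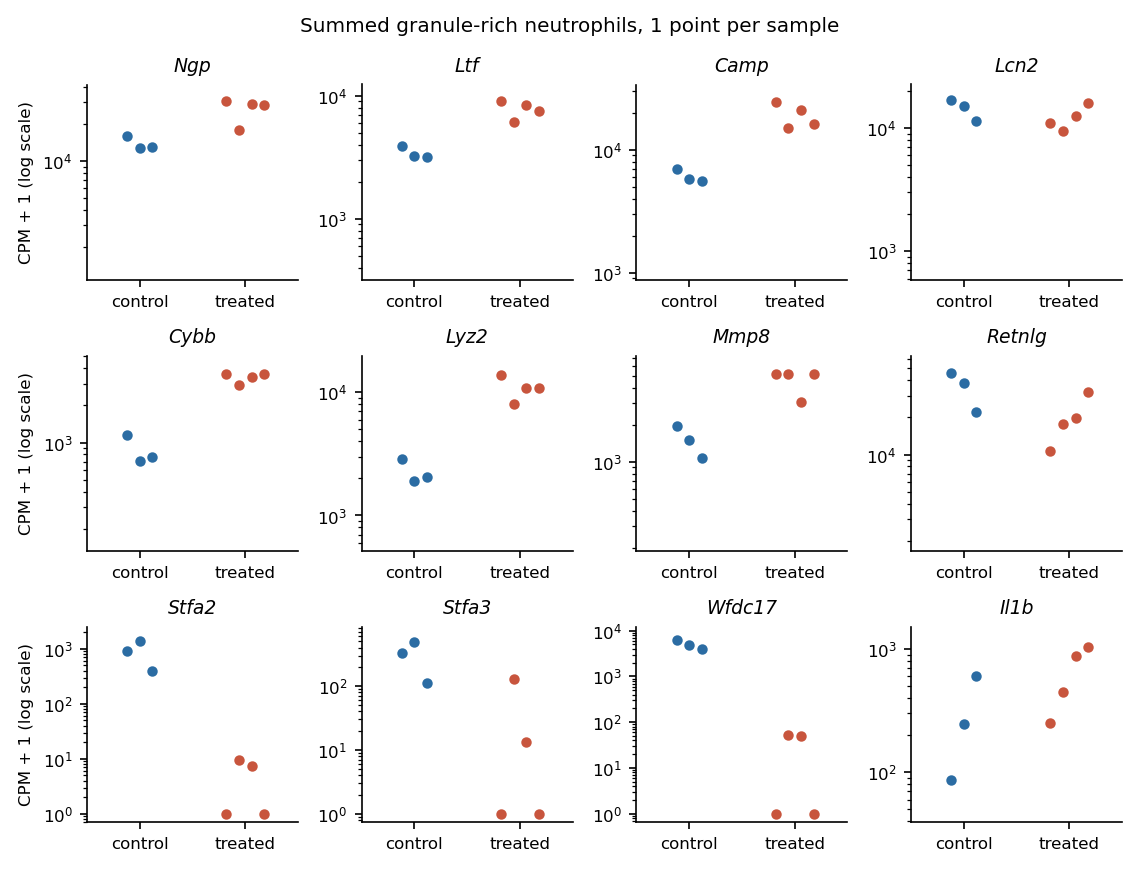
CPM plus 1 on a log axis of 12 genes in the summed granule-rich neutrophils, 1 point per sample, for 3 control and 4 treated samples. Ngp, Ltf and Camp are CPM of all UMIs and the others of UMIs outside the rule genes, and Cybb, Lyz2 and Mmp8 lie higher and Stfa2 and Wfdc17 lower in all 4 treated samples.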

How the data were processed

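Single-cell libraries of 7 liver samples (3 control, 4 treated) were made with a droplet 3′ kit, per the labels' protocols. The authors deposited gene by barcode matrices of UMI counts, not normalized, with 55357 features; Cell Ranger 7.0.0 and bcl2fastq 5.0.1 are named per the submitters' processing notes, and no source used here gives the build or annotation. Symbols are those of the files, and upstream sequences come from RefSeq tables (GRCm38.p6), so their build may differ from that of the counts.

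Barcodes were kept and classed by UMIs as the report's opening gives. Doublets were not removed, and no caller was run; leaving out barcodes with 3 or more UMIs of another cell type's markers was an alternative. Counts were summed per sample and class and tested with edgeR 4.0.16 (quasi-likelihood, TMM, filterByExpr, Benjamini-Hochberg over all genes tested, R 4.3.3). The 10 rule genes were fitted but not tested. The sample was a block, since both classes come from the same library. CPM of other genes are per 1000000 UMIs outside the rule genes. Named genes had an adjusted p under 0.05, a mean of at least 50 CPM in the higher class, no overlap between libraries and the same direction in all 3 pairs, up to 10 per direction by fold, leaving out genes over 5-fold higher in other barcodes. Shares have exact 95% intervals and no test. Treated against control members was not fitted, as it needed 2 samples a group with at least 20 members. On simulated counts with known changes, the granule-rich against granule-low fit found 80% of 2-fold and 99% of 4-fold changes over 10676 genes, and the tertile fit 70% and 100% over 5896 genes. Changes were planted only in genes with at least 10 expected UMIs in the smallest library. All genes had 1 fixed dispersion and sample effects were shared by both classes, so these rates may not hold for the real counts. DESeq2 1.42.0, other scalings, filters, gates and depths, and each control left out were alternatives. Those on deep barcodes, tumour RNA, lymphoid markers and a minimum of 1500 UMIs were chosen after seeing the data. The members and gene lists were chosen with earlier results of these data known.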

Additional observations from a re-analysis of the deposited data

Results flagged for a closer look

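Among 23 values compared over the 4 treated samples, 4 had 1 sample far from the other 3 by Dixon's ratio at its 95% critical value, and chance alone picks out about 1 group in 20. In the members, Ngp was at 17714.8 CPM in treated sample 2, against 28582.6 to 30708 in the other 3. Stfa3 was at 130.089 CPM in treated sample 2, from 15 UMIs, against 0 to 12.5029. Stfa1 was at 8.67258 CPM in treated sample 2, from 1 UMI, against 0. Mmp8 was at 3056.96 CPM in treated sample 3, against 5151.51 to 5179.48.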

How the results depend on the processing

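For granule-rich against granule-low cells, genes higher and lower numbered 496 and 373 with barcodes thinned to 500 UMIs, 1712 and 1857 with a granule sum of at least 10 against 0, 1546 and 1784 with lymphoid, dendritic, basophil and endothelial marker barcodes left out, and 1941 and 2013 with barcodes over 20000 UMIs left out. DESeq2 gave 499 lower and no low-count filter 1556 lower. Without the replicate block the counts were 237 and 107. Leaving out 1 control gave 402 to 1396 higher and 240 to 1086 lower, the lowest without control 1. For the upper against the lower tertile the counts were 368 and 566 with DESeq2, 23 and 36 with all other-type marker barcodes left out, 51 and 66 thinned, 320 and 428 with a granule sum of at least 10, 330 and 456 with lymphoid and the other listed markers left out, 208 and 253 with tumour-marker barcodes left out, and 503 lower with barcodes over 20000 UMIs left out. Fewer genes could be tested in several of these. Without the replicate block they were 381 and 588, and leaving out 1 control gave 401 to 783 higher and 625 to 1161 lower, with the fewest higher genes without control 2.

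Signs turned for S100a4 (0.39) and Itgam (-0.0498) with other-type marker barcodes left out and for Ctsg (0.76) with a granule sum of at least 10, in granule-rich against granule-low cells. Slc11a1, not called there, was at -0.12 with other-type marker barcodes left out, -0.20 thinned, -0.0698 with lymphoid and the other listed markers left out and -0.0117 with tumour-marker barcodes left out. Between tertiles they turned for Mmp8 (-0.0295, granule sum of at least 10), Cxcr2 (0.0430, no low-count filter), Npm1 (0.27, other-type marker barcodes left out) and Mki67 (-0.20, barcodes over 20000 UMIs left out). Leaving out 1 control gave Retnlg -0.64 to 0.17 and Cxcr2 -0.31 to 0.40. The cause was not tested. With a granule sum of at least 10 the mean share of controls was 2.54% of kept barcodes and 11.99% of neutrophils. Thinned to 1000 UMIs it was 0.736% and 5.74%, and in treated samples 0.0356% and 1.13%. Without the block 29 of the genes given with a fold change lost their call in granule-rich against granule-low cells and 4 between tertiles. The comparison of treated with control members and its alternatives were not run, since 1 treated sample reached the minimum of 20 members. No paired analysis was possible because treated and control are separate samples that no label pairs, and that comparison was not fitted.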

Other observations

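Interferon response genes did not move as a group. Of 15 tested, 3 were higher in granule-rich than granule-low cells of the controls (background 9.61%) and 2 lower (background 8.86%). Ifitm3, an interferon-induced membrane protein that restricts viruses, was higher (log2 fold change 1.25 ± 0.12 (SE), adjusted p = 2.22e-04), at 2513, 3211 and 1602 CPM in the granule-rich cells of controls 1, 2 and 3 and 1133, 1302 and 866 in the granule-low cells, where the classes did not overlap. Glycolysis genes were split, with 3 of 16 higher and 4 lower. Hk3, a hexokinase of myeloid cells, was higher at 1.41 (adjusted p = 3.11e-04), and Hk2, another hexokinase, lower at -1.18 (adjusted p = 0.0116). Erythroid markers, globins among them, summed to 6.29, 9.15 and 646 CPM in the members of controls 1, 2 and 3, so control 3 stood apart.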
